A study of Mus musculus with 4 samples.

Results

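Kidney macrophages that carried C1q together with genes of monocytes were described after ischemia-reperfusion (I/R), an injury in which the blood flow to the kidney is stopped and then restored. They were chosen by raw counts of unique molecular identifiers (UMIs), the tags that mark single captured RNA molecules. A member had at least 5 UMIs of C1qa, C1qb and C1qc together and at least 3 UMIs of Ly6c2, Ms4a4c and Plac8 together. It also had at most 2 UMIs of Arg1 and Gpnmb, fewer than 3 UMIs of Mki67 and Top2a, and no UMI of Cd3d, Cd3e or Cd3g. Barcodes were kept where they had 200 genes or more and 50% or less of their UMIs from mitochondrial genes, and 1154 of the 37839 kept met these limits. The levels of the 13 genes in the rule are therefore a description of the choice and support nothing else. The cells are called Ms4a4c macrophages below, because Ms4a4c and not Ly6c2 carried most of them over the limit.

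The kidneys came from male C57BL/6 mice, and the study made 4 droplet single-cell libraries, 1 per group. One group received L. casei Zhang (Lac.z), a probiotic Lactobacillus strain, by gavage for 4 weeks at 1000000000 colony-forming units per day, then I/R, and was killed at day 5. The other groups had I/R without Lac.z and were killed at days 5, 14 and 28. The number of animals in a library, and the gavage of the mice without Lac.z, are not stated in the labels, and no uninjured kidney was analysed here. The libraries held 76678882 to 104454319 UMIs, and each pair of libraries shared 9 to 32 barcode sequences. With 1 library per group there is no replicate check, so no test was run, no p-value is given, and every 95% interval covers counting error only. The time after injury cannot be told apart from the library or from the software version, which the matrix headers give as 3.0.2 at day 5 with and without Lac.z and as 3.1.0 at the later times.

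C1q is the recognition molecule of the classical complement pathway and is made by tissue macrophages in mice. Ly6C-high monocytes enter an injured kidney from the blood, with the chemokine receptor CCR2, and lose Ly6c2 and gain macrophage genes as they differentiate there. Ms4a4c encodes a membrane protein of mouse monocytes and other leukocytes, and Plac8 a small cysteine-rich protein found in monocytes and other cells. Type I interferons act through the receptor subunits IFNAR1 and IFNAR2 on a complex with STAT2 and IRF9 that binds interferon-stimulated response elements, and interferon gamma acts through its own receptor on gamma-activated sequences. IRF7 is a transcription factor that interferon induces and that in turn drives type I interferon genes.

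Ms4a4c macrophages made up a much larger share of the C1q-positive cells in the Lac.z library. They numbered 817 with Lac.z at day 5, against 228, 71 and 38 at days 5, 14 and 28 without it, next to 863 other C1q-positive cells with Lac.z and 3822, 839 and 544 without. This was 48.6% (95% interval 46.2 to 51.1%) of the C1q-positive cells with Lac.z, against 5.63% (95% interval 4.94 to 6.38%) at day 5 without, a ratio of 8.64 (95% interval 7.45 to 10.0). The shares at days 14 and 28 without Lac.z were 7.8% (95% interval 6.14 to 9.74%) and 6.53% (95% interval 4.66 to 8.85%), which was 1.39 (95% interval 1.05 to 1.82) and 1.16 (95% interval 0.80 to 1.64) times the day 5 share. Without Lac.z, both later shares were within 1.5-fold of day 5 by these limits, with intervals that reach past 1.5. Each share counts cells past a limit in UMIs. In every library, cells with 3 to 5 UMIs of Ly6c2, Ms4a4c and Plac8 held more RNA of 35 interferon-induced genes than cells with 0. Whether the shares reflect the number of monocyte-derived cells was not tested.

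The denominator differed as well. C1q-positive cells were 23.9% of kept barcodes with Lac.z, against 57.2% at day 5, 9.51% at day 14 and 4.12% at day 28 without it. Of all kept barcodes, Ms4a4c macrophages were 11.6% with Lac.z, against 3.22%, 0.742% and 0.269% without, so the day 5 ratio was 3.61 (95% interval 3.11 to 4.19) on this base. Among C1q-positive cells that passed the limits on Arg1, Gpnmb, Mki67, Top2a and the Cd3 genes, 817 of 1253 (65.2%) were members with Lac.z and 228 of 2944 (7.74%) without. A limit set in UMIs depends on depth. With each barcode thinned to 3000 UMIs, the shares were 35% with Lac.z, against 1.09%, 1.84% and 3.44% without, and the ratios to day 5 without Lac.z were 32.2 with Lac.z, 1.70 at day 14 (95% interval 0.881 to 3.12) and 3.17 at day 28 (95% interval 1.67 to 5.77). All limits of the rule were applied to the thinned counts, so those on Arg1, Gpnmb, Mki67, Top2a and the Cd3 genes were looser. With the rule applied in this way, the share was larger with Lac.z at equal depth as well. The later ratios without Lac.z were then past 1.5, but the day 14 interval holds 1. The thinned shares rest on 558 members with Lac.z and on 37, 16 and 17 without. Barcodes under 3000 UMIs were left out, 57 of 1680 C1q-positive ones with Lac.z and 577 of 4050, 28 of 910 and 74 of 582 without. Members had a median of 10779 UMIs with Lac.z, against 12371 at day 5 without. Among the members, 59 with Lac.z and 21 at day 5 without were among the barcodes with the highest doublet scores, which were kept in the values given here.

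**Figure D1:**
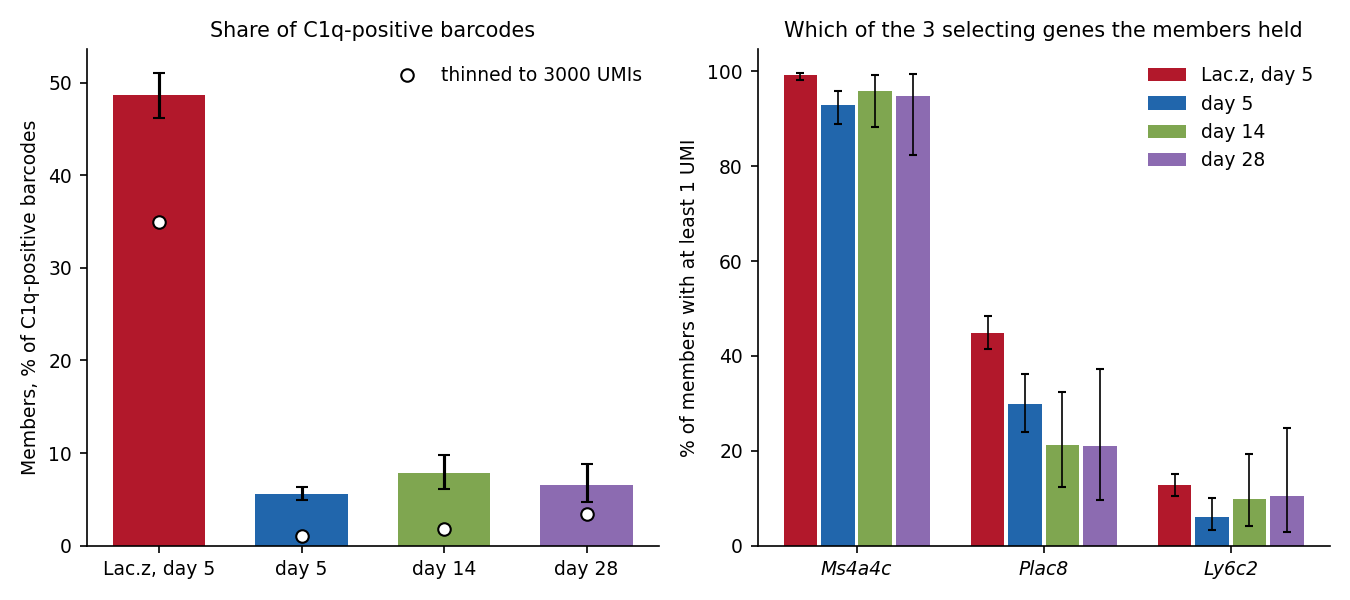
Left, Ms4a4c macrophages (members) as a percentage of C1q-positive barcodes in each of the 4 libraries (bars), with the share after thinning each barcode to 3000 UMIs (open circles), and right, the percentage of members with at least 1 UMI of Ms4a4c, Plac8 or Ly6c2, with exact 95% intervals that cover counting error only. The Lac.z day 5 library stands at 48.6%, the 3 libraries without Lac.z lie between 5.63% and 7.80%, and Ly6c2 is the rarest of the 3 genes in every library.

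Summed over cells, the members held RNA of a list of macrophage markers, of which Lyz2 and Cd14 are also on the classical monocyte list. All 13 macrophage markers were detected in the members of every library, among them Adgre1, which encodes F4/80, at 349 CPM with Lac.z at day 5, against 327, 255 and 367 CPM at days 5, 14 and 28 without it. Csf1r, the receptor for the growth factor CSF1, had 571 CPM with Lac.z at day 5, against 611, 604 and 508 CPM at days 5, 14 and 28 without it. CPM is UMIs per 1000000 UMIs summed over the members of a library. The summed level of the 13 markers was 23497 CPM with Lac.z, against 25114, 21912 and 22454 CPM at days 5, 14 and 28 without. In the other C1q-positive cells it was 29306 CPM with Lac.z, against 31810, 23479 and 19321 CPM without. Dendritic RNA was present as well. With Lac.z 4 of 817 members held 3 or more UMIs of Xcr1, Clec9a, Cd209a, Flt3, Zbtb46 and Ccr7 together. Without Lac.z these were 11 of 228, 3 of 71 and 2 of 38. The median of measured type 2 dendritic markers, members over other C1q-positive cells, was 4.34-fold (6 genes) at day 5 without Lac.z and 0.951-fold (3 genes) with it. That of type 1 dendritic markers was 2.65-fold (6 genes) and 1.85-fold (4 genes). The genes measured thus differed between the libraries.

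The part of the label that names Ly6c2 described few of the cells. A Ly6c2 UMI was found in 12.7% of members with Lac.z (104 of 817), against 6.14% (14 of 228), 9.86% (7 of 71) and 10.5% (4 of 38) at days 5, 14 and 28 without. Ms4a4c was found in 99.1%, against 93%, 95.8% and 94.7%. Plac8 was found in 44.9%, against 29.8%, 21.1% and 21.1%. Tubule barcodes, which should lack Ly6c2 and Ms4a4c, had a Ly6c2 UMI in 0.544% with Lac.z and 0.0701% to 0.148% without, and a Ms4a4c UMI in 1.09% with Lac.z and 0.111% to 0.225% without. Plac8 was also present in 24.8% of tubule barcodes with Lac.z and 11.2% to 17.9% without, so a Plac8 UMI set members less apart. The median tubule barcode held 8062 UMIs with Lac.z and 6801, 6132 and 5087 UMIs at days 5, 14 and 28 without, against 10779 in members with Lac.z and 12371, 10912 and 7334 in members without. After thinning the members to 3000 UMIs, Ly6c2 was found in 8.18% with Lac.z, against 3.56%, 5.71% and 7.89% without, and Ms4a4c in 87.7%, against 63.6%, 74.3% and 76.3%.

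Many members without Lac.z sat at the edge of the rule, and most members with Lac.z lay well inside it. The summed UMIs of Ly6c2, Ms4a4c and Plac8 had a median of 11 with Lac.z and of 4 in each library without. Exactly 3 UMIs were held by 57 of 817 members with Lac.z, against 89 of 228, 20 of 71 and 15 of 38 at days 5, 14 and 28 without, and 104 barcodes with Lac.z and 171, 65 and 35 without fell 1 UMI short. The level of Ms4a4c was 909 CPM with Lac.z at day 5, against 295, 404 and 708 CPM at days 5, 14 and 28 without it. Ly6c2 UMIs lay in few cells, with 699 of 1660 in 3 cells with Lac.z and 37 of 54, 39 of 44 and 63 of 64 in 3 cells at days 5, 14 and 28 without.

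Genes of blood monocytes were present unevenly. With Lac.z, 3 of 21 classical monocyte genes were at least 1.5-fold higher in members than in other C1q-positive cells and 9 lower. Over all genes these were 7.74% and 7.37%. At day 5 without, 6 of 21 were higher and 4 lower, beside 12.4% and 7.29%. At day 14 these were 5 and 3 of 17, beside 11.9% and 9.1%. Their summed level was 15214 CPM in members and 20771 in others with Lac.z. Without, it was 18916 and 24169 CPM at day 5, 14933 and 15133 at day 14, and 13923 and 10960 at day 28. In members, Ccr2 had 489.7 CPM with Lac.z at day 5, against 685, 338 and 436 CPM at days 5, 14 and 28 without it. Fn1, which encodes fibronectin and is high in young monocyte-derived macrophages, had 29.2 CPM with Lac.z, against 149 and 44.5 CPM at days 5 and 14 and 0 UMIs at day 28 without. Chil3 and Vcan, which mark Ly6C-high monocytes in mice, had 239 and 26 UMIs over all 817 members with Lac.z, against 178 and 23 UMIs over 228 members at day 5 without. At day 28, Vcan, Chil3, Fn1 and F13a1 were all at 0 UMIs in 38 members, where 3 UMIs would be 9.84 CPM. Of the genes of resident macrophages, Vsig4 was at 0 in members of all 4 libraries, and Cx3cr1 had 502 CPM with Lac.z at day 5, against 487, 409 and 535 CPM at days 5, 14 and 28 without it.

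The comparison of the day 5 libraries asks how Ms4a4c macrophages differed after Lac.z. The clearest difference lay in genes that interferon induces: 32 of 35 measured interferon effectors were at least 1.5-fold higher with Lac.z and none was lower, with a median of 2.36-fold. Over all 9562 genes with at least 50 UMIs in the pair, 876 (9.16%) were at least 1.5-fold higher with Lac.z and 560 (5.86%) lower, and the median log2 ratio was 0.03. The summed level of the 35 effectors was 14533 CPM with Lac.z, against 5709.8 CPM at day 5 without. The days 14 and 28 libraries held 7153 and 10765 CPM, both below the Lac.z library.

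Several effectors were among the genes with the highest ratios. Oas3, which makes oligoadenylates that activate RNase L in response to viral RNA, had 171 CPM with Lac.z at day 5, against 33.5, 67.8 and 105 CPM at days 5, 14 and 28 without it (5.11-fold, 95% interval 4.19 to 6.28, at day 5). Ifi44, a cytoplasmic protein induced by interferon, had 115 CPM with Lac.z at day 5, against 19.5, 65.7 and 78.7 CPM at days 5, 14 and 28 without it (5.92-fold, 95% interval 4.57 to 7.79). Ifit3, of a family that binds viral RNA, had 532 CPM with Lac.z at day 5, against 177, 158 and 351 CPM at days 5, 14 and 28 without it (3.01-fold, 95% interval 2.75 to 3.29). In all of these the Lac.z library was above each library without Lac.z. Isg15, a ubiquitin-like protein joined to other proteins, had 681 CPM with Lac.z at day 5, against 282, 177 and 354 CPM at days 5, 14 and 28 without it (2.41-fold, 95% interval 2.25 to 2.59). Its UMIs were found in 93.4% of members with Lac.z and 50% without, against 9.16% and 1.47% of tubule barcodes, and in 74.5% and 27.6% of members after thinning. Bst2, or tetherin, which holds virus particles at the cell surface, had 1713 CPM with Lac.z, against 519 CPM without (3.3-fold), and Ifi27l2a had 3589 CPM with Lac.z, against 1129 CPM without (3.18-fold).

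Not every effector followed. Rsad2, which encodes viperin, had 229.9 CPM with Lac.z at day 5, against 251, 117 and 269 CPM at days 5, 14 and 28 without it, a ratio of 0.916 at day 5. Its UMIs without Lac.z lay in few cells, with 488 of 786 in 3 cells, against 311 of 2197 in 3 cells with Lac.z. A Rsad2 UMI was found in 59.9% of members with Lac.z and 25% without, or 33.8% and 12.9% after thinning, against 4.71% and 0.911% of tubule barcodes. Ifit1 showed the same shape, with 176 of 352 UMIs in 3 cells without Lac.z, and had 217 CPM with Lac.z, against 112 CPM without (1.93-fold, 95% interval 1.72 to 2.16). The sums over cells for these genes rest in the day 5 library on a few cells with many UMIs.

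Signalling genes of the pathway differed in part. Of 24 measured sensors, factors and receptors of the interferon system, 11 were at least 1.5-fold higher with Lac.z and none lower (median log2 ratio 0.43). Irf7 had 767 CPM with Lac.z at day 5, against 169, 401 and 836 CPM at days 5, 14 and 28 without it (4.53-fold, 95% interval 4.15 to 4.96). Stat2 had 107 CPM with Lac.z at day 5, against 33.5, 38.2 and 62.3 CPM at days 5, 14 and 28 without it (3.18-fold, 95% interval 2.6 to 3.92). At day 28 without Lac.z, Irf7 was as high as in the Lac.z library within counting error, in 38 cells. The RNA sensors Ifih1 and Ddx58, which detect viral RNA in the cytoplasm, were 2.12-fold and 2.36-fold higher, and Zbp1, a sensor of unusual nucleic acid helices, 2.3-fold.

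The receptors and the interferons themselves did not show this. Ifnar1 had 83.5 CPM with Lac.z, against 96.1 CPM without, Ifngr1 297 CPM with Lac.z, against 377 CPM without, and Irf1 125 CPM with Lac.z, against 132 CPM without, all within 1.5-fold. Ifnb1, interferon beta, had 1 UMI over all members with Lac.z, against 0, 0 and 5 UMIs at days 5, 14 and 28 without. Ifng, interferon gamma, had 0 UMIs with Lac.z, against 0, 1 and 0 UMIs without. Between the day 5 libraries no difference in either interferon was detectable at this depth. At day 28 the 5 Ifnb1 UMIs in 38 members were 16.4 CPM, above the floor of 3 UMIs, against 0.105 CPM with Lac.z, and all 5 lay in at most 3 cells.

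Genes that interferon gamma induces most strongly differed less as a list. Of 20 measured genes 8 were at least 1.5-fold higher with Lac.z and none lower, with a median log2 ratio of 0.33 that is itself within 1.5-fold. Gbp6, a guanylate-binding protein that acts on pathogen vacuoles, had 10.2 CPM with Lac.z, against 2.24 CPM without (4.54-fold). Ciita, the master regulator of class II genes, had 71.6 CPM with Lac.z, against 106 CPM without (0.677-fold). Cxcl9, a chemokine for T cells that interferon gamma induces, had 123 CPM with Lac.z at day 5, against 171, 325 and 499 CPM at days 5, 14 and 28 without it. Its day 5 ratio was 0.721 (95% interval 0.65 to 0.8), so this marker was not higher with Lac.z.

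Cxcl9 UMIs were found in few members. A Cxcl9 UMI was found in 7.96% of members with Lac.z, against 9.65%, 16.9% and 18.4% at days 5, 14 and 28 without, and in 0.142% of tubule barcodes with Lac.z and 0.0185% to 0.491% without. After thinning the shares of members were 5.08%, against 6.22%, 10% and 10.5%. In 3 cells lay 377 of 1179 UMIs with Lac.z, against 378 of 536, 291 of 307 and 118 of 152 at days 5, 14 and 28 without. Members without a Cxcl9 UMI include cells in which it was not captured. The related Cxcl10, which both kinds of interferon induce, had 409.9 CPM with Lac.z at day 5, against 366, 225 and 626 CPM at days 5, 14 and 28 without it.

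Fcgr4, the activating receptor for IgG2 antibodies in mice, was spread over most members and was higher with Lac.z. It had 524 CPM with Lac.z at day 5, against 259.7, 289 and 459 CPM at days 5, 14 and 28 without it (2.02-fold, 95% interval 1.87 to 2.18, at day 5). A Fcgr4 UMI was found in 95.5% of members with Lac.z, against 83.8%, 85.9% and 86.8% at days 5, 14 and 28 without, or 73.2%, against 47.6%, 50% and 68.4% after thinning, with 0.781% of tubule barcodes with Lac.z and 0.561% at day 5 without. Fcgr1, the high-affinity IgG receptor, had 799 CPM with Lac.z at day 5, against 458, 414 and 439.5 CPM at days 5, 14 and 28 without it (1.75-fold, 95% interval 1.65 to 1.85). The inhibitory receptor Fcgr2b (1.17-fold) and Fcgr3 (0.975-fold) were within 1.5-fold, and of 9 measured Fc receptors and kinases 2 were higher and none lower.

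Antigen presentation split by class. Of 22 class I genes 11 were at least 1.5-fold higher with Lac.z and none lower (median log2 ratio 0.60). H2-K1, a classical class I heavy chain, had 2494 CPM with Lac.z at day 5, against 1209, 1518 and 3083 CPM at days 5, 14 and 28 without it (2.06-fold), and B2m, its light chain, 2969.6 CPM with Lac.z, against 1610.3 CPM without (1.84-fold). H2-Q6 had the highest ratio, with 71.5 CPM with Lac.z, against 13.1 CPM without (5.46-fold, 95% interval 3.98 to 7.68), but its reads can be split with near-identical H2-Q genes. Of 12 measured class II genes, 1 was higher, 1 was lower and the rest were within 1.5-fold (median log2 ratio 0.06). Cd74, the invariant chain, had 12278 CPM with Lac.z, against 12244 CPM without, and H2-Ab1 4656 CPM with Lac.z, against 4212 CPM without. The gene past the limit on the higher side was Ctss, a protease that cuts the invariant chain (1.61-fold), and on the lower side Cd80, a costimulatory ligand, with 35 UMIs with Lac.z and 17 without. Cd80 was 1.48-fold lower, 95% interval 0.779 to 2.72, an interval that holds 1, and it passed the limit only in the log2 ratio with 1 UMI added (-0.61).

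Promoters are shown for 4 of the genes that were higher with Lac.z. They are the interferon effectors Oas3 and Ifit3, the factor Irf7 and the receptor Fcgr4, next to Ms4a4c, the gene that carries the rule. Each runs from 250 bases before the annotated start to 50 after it, 5′ to 3′ on the gene's strand, from RefSeq on GRCm38.p6. Capitals mark matches on either strand to the core of the interferon-stimulated response element, searched as GAAA, any 2 bases and GAAA. Oas3 lies at chr5:120777610-120777909 on the minus strand, Fcgr4 at chr1:171018676-171018975 on the plus strand, Ifit3 at chr19:34583279-34583578 on the plus strand, Irf7 at chr7:141266375-141266674 on the minus strand and Ms4a4c at chr19:11407411-11407710 on the plus strand.
Oas3: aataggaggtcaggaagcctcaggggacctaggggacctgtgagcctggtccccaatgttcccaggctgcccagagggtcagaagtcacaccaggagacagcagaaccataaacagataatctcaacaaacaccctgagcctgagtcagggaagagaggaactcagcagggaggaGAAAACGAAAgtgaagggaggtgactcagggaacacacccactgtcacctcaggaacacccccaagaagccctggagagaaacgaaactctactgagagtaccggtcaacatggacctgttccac
Fcgr4: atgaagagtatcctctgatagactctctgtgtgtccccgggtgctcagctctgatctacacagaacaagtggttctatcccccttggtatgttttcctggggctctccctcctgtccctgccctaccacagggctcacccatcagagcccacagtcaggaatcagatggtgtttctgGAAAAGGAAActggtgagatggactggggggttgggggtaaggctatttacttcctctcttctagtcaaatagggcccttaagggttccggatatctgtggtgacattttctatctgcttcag
Ifit3: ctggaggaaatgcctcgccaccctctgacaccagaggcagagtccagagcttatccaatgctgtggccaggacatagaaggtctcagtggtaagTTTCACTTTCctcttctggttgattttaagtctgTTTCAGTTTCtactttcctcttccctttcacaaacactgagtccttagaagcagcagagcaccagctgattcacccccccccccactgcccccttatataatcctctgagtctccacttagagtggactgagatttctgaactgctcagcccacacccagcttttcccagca
Irf7: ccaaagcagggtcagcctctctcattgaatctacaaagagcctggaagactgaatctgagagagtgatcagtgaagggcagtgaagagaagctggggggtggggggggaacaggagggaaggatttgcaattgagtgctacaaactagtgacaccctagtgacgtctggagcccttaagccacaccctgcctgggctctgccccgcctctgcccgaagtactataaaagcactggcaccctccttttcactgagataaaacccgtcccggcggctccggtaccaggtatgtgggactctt
Ms4a4c: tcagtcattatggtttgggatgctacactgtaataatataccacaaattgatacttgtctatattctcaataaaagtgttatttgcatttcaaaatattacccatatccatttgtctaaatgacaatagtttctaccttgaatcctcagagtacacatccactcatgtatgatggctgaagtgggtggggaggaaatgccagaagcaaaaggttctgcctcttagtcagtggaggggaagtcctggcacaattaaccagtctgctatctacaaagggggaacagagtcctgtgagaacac

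The element was found in the windows of Oas3, Fcgr4 and Ifit3 and not in those of Irf7 and Ms4a4c. It began 75 bases before the start in Oas3 and 73 bases before it in Fcgr4, and Ifit3 held it at 156 and at 122 bases before the start. Other windows were searched but are not shown. That of Ifit3b held the element, and those of Ifi44, Slfn4, Tnfsf8, H2-Q6, Plac8 and Ly6c2 did not. Of the interferon effectors with a RefSeq promoter, 14 of 26 (53.8%) held the element, against 1079 of 27025 promoters of all genes (3.99%). Among class I genes it was 5 of 18 (27.8%), among genes that interferon gamma induces 12 of 16 (75%), and among classical monocyte genes 1 of 15 (6.67%) and among genes of repair and lipid handling 3 of 20 (15%). The gamma-activated sequence, searched as TTCNNNGAA, was in none of the 5 windows shown. It was in 8 of 16 (50%) promoters of the interferon gamma list and in 4 of 15 (26.7%) of classical monocyte genes. Effectors held it in 4 of 26 (15.4%), against 9.55% of all promoters. Cxcl9 held neither motif. A match describes letters in the window and not a bound site. The lack of a match covers only the searched letters and spacing in this window, so it does not show that a gene lacks such an element.

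Part of the classical monocyte list was lower with Lac.z. Of 19 measured genes 9 were at least 1.5-fold lower and 2 higher, with a median log2 ratio of -0.54 that is itself within 1.5-fold. Fn1 had 29.2 CPM with Lac.z, against 149 CPM without (5.1-fold lower, 95% interval 4.38 to 5.93). F13a1, a subunit of coagulation factor XIII, had 63.3 CPM with Lac.z, against 191 CPM without (3.01-fold lower, 95% interval 2.68 to 3.38), and S100a4, a calcium-binding protein of motile cells, 132 CPM with Lac.z, against 340.5 CPM without (2.59-fold lower). Lyz2, lysozyme, had 8394 CPM with Lac.z, against 12979 CPM without (1.55-fold lower). Ccr2 had 489.7 CPM with Lac.z, against 685 CPM without (0.715-fold), which is within 1.5-fold. The 2 genes on the higher side were Ifitm3 (1.87-fold), which keeps viruses from fusing with the cell and is induced by interferon, and Ifitm6 (1.9-fold).

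Genes of resident macrophages did not move as a list, with 3 higher and 4 lower of 22 and a median log2 ratio of 0.04. Apoe had 23189.6 CPM with Lac.z, against 22553 CPM without, and Mrc1, the mannose receptor, 347 CPM with Lac.z, against 534 CPM without (1.54-fold lower). Pf4, a chemokine of platelets and macrophages, had 355 CPM with Lac.z, against 600.1 CPM without (1.69-fold lower). Genes of repair and lipid handling gave 2 higher and 4 lower of 23 (median log2 ratio -0.17). Spp1, osteopontin, had 1193 CPM with Lac.z, against 543 CPM without, but 5548 of its 11397 UMIs with Lac.z lay in 3 cells. Because the rule removed cells with Arg1 or Gpnmb, this list was thinned by the choice of members.

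Chemokines and inflammatory cytokines were mostly within 1.5-fold. Of 22 chemokines and receptors 2 were higher and 3 lower, and of 24 inflammatory genes 4 were higher and 4 lower. Ccl2, which draws monocytes through CCR2, had 635 CPM with Lac.z, against 771 CPM without, and Ccl12, a related mouse chemokine, 1765 CPM with Lac.z, against 1378 CPM without. Il1b had 607 CPM with Lac.z, against 774 CPM without and Tnf 56.4 CPM with Lac.z, against 74.4 CPM without. Il18, a cytokine that the inflammasome activates, had 56.2 CPM with Lac.z, against 28.4 CPM without (1.98-fold). Glycolysis genes gave 0 of 17 past the limit, and 5 of 13 S phase genes were higher, among them Mcm4, a subunit of the replicative helicase (2.5-fold), in cells from which Mki67 and Top2a had been held down by the rule.

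Complement genes other than C1q were split. C2, which forms part of the classical C3 convertase, had 19.2 CPM with Lac.z, against 2.87 CPM without (6.66-fold, 95% interval 3.43 to 14.8), and Cfb, its counterpart in the alternative pathway, 56.8 CPM with Lac.z, against 16.6 CPM without (3.42-fold). Serping1, the inhibitor of C1, had 6.8 CPM with Lac.z, against 26.5 CPM without (3.9-fold lower). At day 5 without Lac.z, its log2 ratio in members over other C1q-positive cells was 4.21. The medians of endothelial and of fibroblast or mural markers there were 3.50 and 3.95. Whether its level came from RNA of other cell types was not tested. C4b, which joins C2 in the classical convertase, had 90 CPM with Lac.z, against 46.6 CPM without (1.93-fold). Of 12 measured genes 3 were higher and 2 lower.

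Among the genes with the highest ratios was Slfn4, a Schlafen gene of mouse myeloid cells, with 292 UMIs over 817 members with Lac.z and 3 UMIs over 228 members without (30.6 CPM with Lac.z, against 0.958 CPM without; 31.9-fold, 95% interval 10.8 to 156). Ly6a, which encodes Sca-1, a surface protein that interferon induces in mice, had 1489.6 CPM with Lac.z at day 5, against 173, 956 and 472 CPM at days 5, 14 and 28 without it (8.59-fold, 95% interval 7.88 to 9.38). Tnfsf8, the ligand of CD30, had 16.3 CPM with Lac.z, against 2.87 CPM without (5.68-fold), and AW011738 14.4 CPM with Lac.z, against 1.6 CPM without (9.04-fold). Without Lac.z, Slfn4 was at the floor of 3 UMIs, AW011738 had 5 UMIs, and C2 and Tnfsf8 9 and 9 UMIs, so these genes were measured through their UMIs with Lac.z and their ratios and ranks are imprecise. S100g and Hbb-bs, the other genes among the 10 highest, belong to tubule and red blood cells. The lowest ratios after Fn1 were those of Sparc, Cxcl14, Tagln and Mgp (4.91-fold lower, 4.7-fold lower, 4.64-fold lower and 3.9-fold lower). Rasgrp3 and Rasgrp2, exchange factors that activate Ras and Rap proteins, were 3.9-fold lower and 3.18-fold lower, Cbr2, a carbonyl reductase, 3-fold lower, and Gng11, a G protein subunit, 3-fold lower.

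RNA of other cell types moved with the library, and its part in these results was not tested. All 7 endothelial markers were lower in members with Lac.z, at a summed 45 CPM against 256 CPM without, and 4 of 5 fibroblast or mural markers were lower, at 98.9 against 351 CPM. All 5 measured type 2 dendritic markers were lower (123 against 349 CPM), and 8 of 13 proximal tubule markers were higher (2432 against 1383 CPM). The median log2 ratio of the proximal tubule list was 0.70, but -0.063 with doublets removed. In the other C1q-positive cells 13 of 13 were higher (median 3.14-fold). Much of this lay in few cells without Lac.z: 2419 of 2717 Mgp UMIs and 351 of 385 Tagln UMIs lay in 3 cells, as did all 2824 UMIs of Jchain, a plasma cell gene. Members with 10 or more UMIs of other lineages numbered 17 with Lac.z and 11 without. When they were left out, Mgp was higher with Lac.z (log2 ratio 0.91), and Tagln, Gng11 and Sparc were within 1.5-fold (0.47, 0.35 and -0.045). Those 4 genes thus rest on a few members. The median of the interferon effectors ranged from 0.89 to 1.51 (log2) over all alternatives tried, with that alternative among them.

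**Figure D2:**
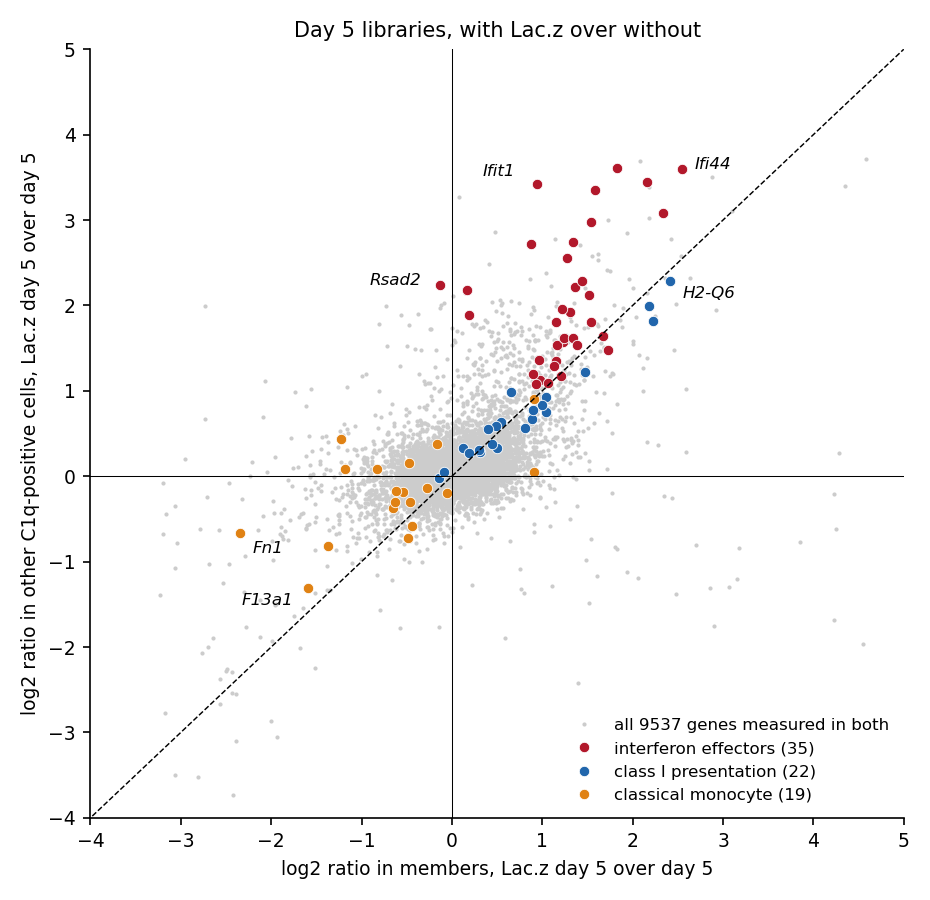
Log2 ratio of CPM, Lac.z day 5 over day 5, for each measured gene in Ms4a4c macrophages (horizontal axis) and in the other C1q-positive cells (vertical axis), with the 35 interferon effectors marked. The effectors lie above 0 on both axes except Rsad2 in Ms4a4c macrophages, and 10 of 9537 genes lie outside the axes.

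The interferon difference was also present outside the Ms4a4c macrophages. In the other C1q-positive cells all 35 effectors were at least 1.5-fold higher with Lac.z (median 3.71-fold), beside 10.6% of 11874 genes higher and 3.67% lower. Tubule barcodes carried interferon RNA more often with Lac.z as well, with an Irf7 UMI in 24.1% with Lac.z and 3.64% at day 5 without, and an Ifit3 UMI in 19.3% and 3.15%. Whether this is RNA of tubule cells or free RNA was not tested. In log2 terms the ratio was at least 1.5-fold smaller in Ms4a4c macrophages than in the other cells for 19 of 35 effectors and larger for 0, with a median difference of -0.62. Over all 9537 genes measured in both, 3.68% were larger and 8.26% smaller in Ms4a4c macrophages. The other cells were not alike in the libraries, however: 250 of 863 with Lac.z and 107 of 3822 without had 3 or more UMIs of Ly6c2, Ms4a4c and Plac8 and failed another limit. Among the 436 other cells with Lac.z and 2716 without that were within all other limits, 33 of 35 effectors were higher with Lac.z (median 2.25-fold), beside 11.8% of 10715 genes higher and 3.49% lower. Against those cells the ratio in Ms4a4c macrophages was smaller for 8 of 35 effectors and larger for 2, with a median difference of 0.062, beside 4.59% larger and 11.7% smaller of 9463 genes. The smaller ratios in Ms4a4c macrophages thus depended on which other cells they were set against. All these ratios rest on the same pair of libraries.

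The choice of other cells mattered for single genes too. Irf7 and Ifit1 had smaller ratios in Ms4a4c macrophages than in either set of other cells. Against the others within all other limits, the log2 differences were -0.43 and -1.62, and that of Irf7 is within 1.5-fold. The Ifit1 sum in Ms4a4c macrophages without Lac.z rests on a few cells, as above. Irf7 had 767 CPM in Ms4a4c macrophages and 298 CPM in the other C1q-positive cells with Lac.z, and 169 and 28.4 CPM at day 5 without, so its Lac.z ratio was 4.53-fold in Ms4a4c macrophages and 10.5-fold in the others, but 6.09-fold in the others within all other limits (1 UMI added). Ifit1 had 217 and 83.9 CPM with Lac.z, and 112 and 7.81 CPM without (1.93-fold and 10.7-fold), and its ratio in the others within all other limits was 5.9-fold (1 UMI added). Class I genes gave nearly the same list median in both, 0.60 in Ms4a4c macrophages and 0.61 in the others, and none of 22 differed by 1.5-fold, while the median was 0.35 in the others within all other limits, and 5 of 22 ratios were then larger in Ms4a4c macrophages. Fcgr4 was 2.02-fold higher in Ms4a4c macrophages and 1.62-fold in the others, and Cxcl9 1.39-fold lower and 2.01-fold lower. Of classical monocyte genes 9 of 19 were lower and 2 higher in Ms4a4c macrophages, and 6 of 21 lower and 2 higher in the others (median log2 ratio -0.18).

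Set against the other C1q-positive cells of the same library, Ms4a4c macrophages held more interferon RNA in every library where both could be compared. Members and others were split by the rule from one pool of cells, so these values describe the choice. All 35 effectors were at least 1.5-fold higher in Ms4a4c macrophages with Lac.z (median 2.25-fold) and all 35 at day 5 without (median 2.91-fold), and 32 of 34 at day 14 (median 2.61-fold). Over all measured genes, 7.74% were higher and 7.37% lower with Lac.z, 12.4% and 7.29% at day 5, and 11.9% and 9.1% at day 14. Stat2 had 107 CPM in Ms4a4c macrophages and 52.8 CPM in the others with Lac.z, and 33.5 and 17.9 CPM at day 5 without. Isg20, an interferon-induced exonuclease, was 3.82-fold and 6.84-fold higher in Ms4a4c macrophages in these libraries, and Cxcl10 3.49-fold and 4.53-fold.

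Presentation genes were higher in Ms4a4c macrophages too. Class I genes were higher in 11 of 22 with Lac.z, 9 of 22 at day 5 and 11 of 21 at day 14. Class II genes were higher in 7 of 12 with Lac.z and 8 of 14 at day 5, but in none of 14 at day 14. H2-Ab1 had 4656 CPM in Ms4a4c macrophages and 1944 CPM in the others with Lac.z, 4212 and 2658 CPM at day 5, and 9068 and 8939 CPM at day 14. At day 14 the level was thus nearly the same in both. Fcgr4 had 524 CPM in Ms4a4c macrophages and 241 CPM in the others with Lac.z, 259.7 and 149 at day 5, 289 and 203 at day 14, and 459 and 223 at day 28.

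Repair and proliferation genes were lower in Ms4a4c macrophages, next to limits in the rule that remove such cells. Repair and lipid genes were lower in 16 of 24 with Lac.z, 17 of 25 at day 5 and 7 of 24 at day 14. Fabp5, a fatty acid carrier, had 78.7 CPM in Ms4a4c macrophages and 1133 CPM in the others with Lac.z, and 123 and 733 CPM at day 5 without. Mmp12, the macrophage elastase, had 15 and 147 CPM with Lac.z, 14.4 and 136 CPM at day 5, 24.4 and 240.0 CPM at day 14, and 29.5 and 227 CPM at day 28, so it was lower in Ms4a4c macrophages of all 4 libraries. The other genes with the lowest ratios in both day 5 libraries were Hist1h1b, Cdca8, Cdk1, Stmn1 and Rrm1, which serve cell division, and Vat1, Syngr1 and Lhfpl2. Vat1 was 4.49-fold lower with Lac.z and 4.81-fold lower without, and Lhfpl2 7.01-fold lower and 3.09-fold lower. Endothelial and fibroblast markers were higher in members than in others at day 5 with and without Lac.z, and Mgp and Sparc led the higher genes. Their UMIs lay in few cells, as above.

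The levels at each sum of Ly6c2, Ms4a4c and Plac8 UMIs describe the choice of members, since the rule used that sum, and support nothing else. Interferon RNA was higher at larger sums on both sides of the limit of 3. Among C1q-positive cells within the other limits, the summed effectors of the Lac.z library were 4189, 5157 and 6931 CPM at 0, 1 and 2 UMIs, and 9993, 13828 and 16497 CPM at 3 to 5, 6 to 10 and over 10 UMIs. In the day 5 library without Lac.z they were 2409, 2939.7 and 3335 CPM, then 4827, 7359.8 and 8129 CPM. At each of the 6 steps the Lac.z library was higher, and the step of 3 to 5 UMIs held 164 cells with Lac.z and 167 without. The ratio of the summed effectors, Lac.z over none, was 1.74, 1.75 and 2.08 at 0, 1 and 2 UMIs and 2.07, 1.88 and 2.03 at the steps of the members. That of Irf7 was 4.43 at 0 UMIs and 2.67 at over 10. Cells of a step do not have equal sums, and the last step has no upper end. Within the members with 3 to 5 UMIs, 29 of 34 effectors were at least 1.5-fold higher with Lac.z, with a median log2 ratio of 1.14, beside 10.2% of 6570 genes higher and 3.82% lower.

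At day 14 the sums were 2972, 3678, 4473 and 6662 CPM over the first 4 steps, and at day 28 3269, 4087, 5311 and 7077 CPM. The last 2 steps held 16 and 11 cells at day 14 (6673 and 9419 CPM) and 5 and 9 cells at day 28 (15861 and 17525 CPM). Without these thin steps the rise over the first 4 steps was still present in both libraries. Irf7 followed the same course, with 112 CPM at 0 UMIs and 878 CPM at over 10 UMIs with Lac.z, and 25.2 and 329.5 CPM without. Adgre1 lay between 272 and 363 CPM at all steps with Lac.z. Without Lac.z at day 5 it lay between 302 and 379.9 CPM up to 10 UMIs and stood at 174 CPM in the 26 cells above. Ccr2 stood with Lac.z at 195 and 569 CPM in the first and the last step, and peaked at 761 CPM at 3 to 5 UMIs without.

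**Figure D3:**
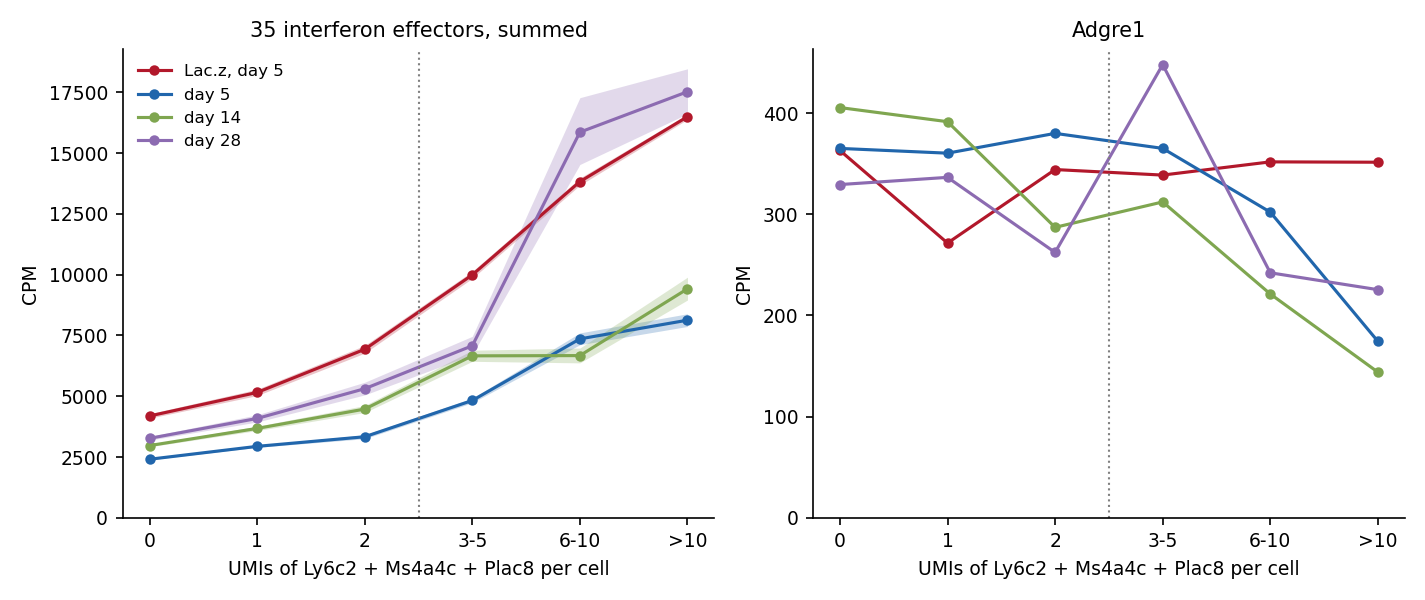
Summed level of 35 interferon effectors (left) and level of Adgre1 (right), both in CPM, in C1q-positive cells within the other limits of the rule, by their summed UMIs of Ly6c2, Ms4a4c and Plac8 (horizontal axis), for each library. Shading on the left is the exact 95% interval for counting error, and the dotted line marks the limit for members. The effectors are higher at more UMIs in each library over the steps with at least 20 cells, and the Lac.z library lies above the day 5 library without Lac.z at every step.

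The 104 members with a Ly6c2 UMI in the Lac.z library held more RNA of classical monocyte genes than the 713 without. Of 18 classical monocyte genes 11 were at least 1.5-fold higher in them and none lower (median log2 ratio 0.74), beside 5.42% higher and 7.9% lower of 8870 genes. Chil3 had 120.3 CPM in cells with Ly6c2 and 9.6 CPM in cells without. Hp, haptoglobin, had 28.6 and 2.55 CPM, and S100a4 had 247 and 113 CPM. Interferon effectors did not follow, with 1 of 35 higher and a median log2 ratio of -0.055. Isg15 had 684 CPM in cells with Ly6c2 and 680.2 CPM in cells without. No macrophage marker of 13 differed by 1.5-fold. Of 3 measured B lineage genes 1 was higher in cells with Ly6c2, the plasma cell gene Jchain, with a log2 ratio of 7.81. The list median was -0.059. Whether some of the 104 cells held RNA of plasma cells was not tested. Ly6c2 may be read from a single UMI, so cells without one include cells in which it was not captured.

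Without Lac.z, Ms4a4c macrophages at day 14 held more class II RNA than at day 5. Of 10 measured class II genes 5 were at least 1.5-fold higher and none lower (median log2 ratio 0.64), beside 12.4% higher and 11% lower of 6620 genes. H2-Ab1 had 4212, 9068 and 13215 CPM at days 5, 14 and 28, and Cd74 12244, 24029 and 29001 CPM. Il1b had 774, 2476 and 1961 CPM, and Nlrp3, the sensor of the inflammasome, 50.8, 247 and 194 CPM. Immediate early genes, which tissue digestion also induces, were higher in 9 and lower in 1 of 15 at day 14. These rises were not particular to Ms4a4c macrophages. Summed class II RNA went from 19716 CPM at day 5 to 55807 CPM at day 14 in the other C1q-positive cells. In Ms4a4c macrophages it went from 29071 to 56321 CPM. In the other cells the inflammatory genes went from 3155 to 7441 CPM and the immediate early genes from 11808 to 18991 CPM.

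Interferon effectors were mixed over time, with 8 higher and 6 lower of 35 at day 14 (median log2 ratio 0.43). Ifi44 was 3.37-fold higher than at day 5 and Irf7 2.37-fold, while Cmpk2, a nucleotide kinase induced with Rsad2, was 2.43-fold lower. Classical monocyte genes were lower in 9 of 18, led by F13a1 (5.62-fold lower, 95% interval 3.94 to 8.29), and chemokines and receptors in 10 of 22, among them Ccr1 (5.05-fold lower). The genes with the highest ratios at day 14, Umod, Wfdc2, Krt8, Klk1 and S100g, belong to tubule cells, and 1055 of 1064 Umod UMIs lay in 3 cells. The lowest were Mgp, Cxcl14, Ccdc152, Tagln and Ifitm1. With 38 members, day 28 was not compared gene by gene.

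**Figure D4:**
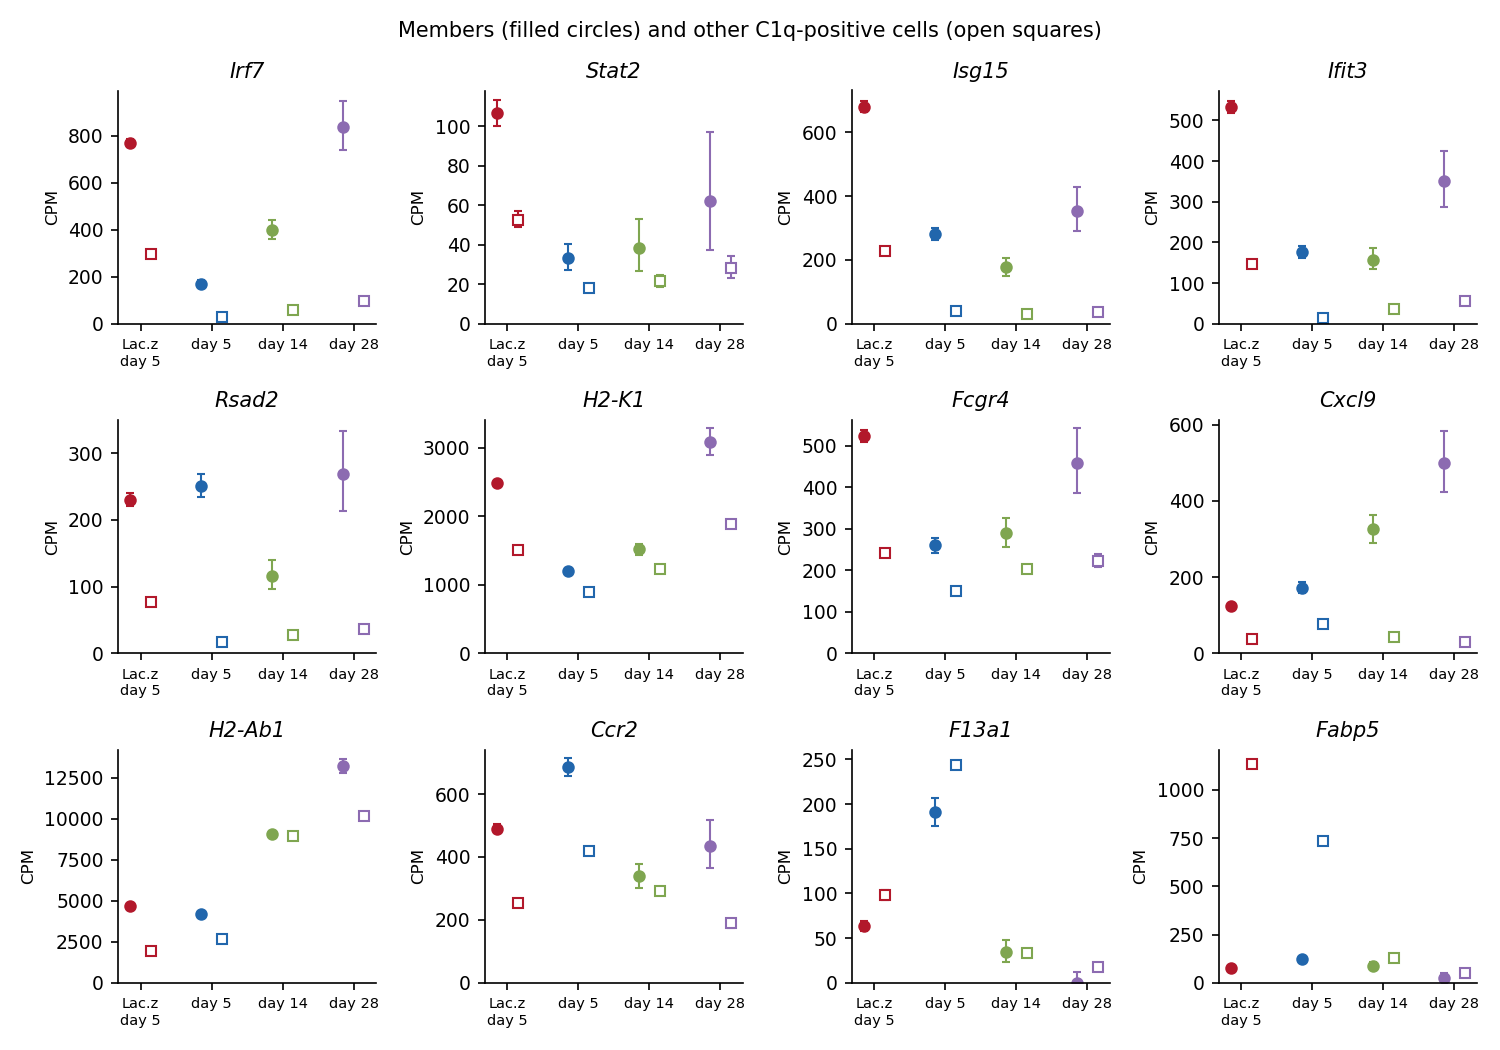
Level (CPM, linear axes that start at 0) of 12 genes in Ms4a4c macrophages (members, filled circles) and other C1q-positive cells (open squares) of each library, with exact 95% intervals that cover counting error only. Irf7 stands at 767 CPM with Lac.z and 169 CPM at day 5 without, and Fabp5 is lower in Ms4a4c macrophages than in the other cells in every library.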

How the data were processed

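Cells were freed from kidney with enzymes, passed through a strainer and cleared of red blood cells by lysis, per the labels' protocols, and single-cell libraries were made from 4 groups with 1 library each. The deposited values were raw counts, that is, whole numbers of UMIs for each gene in each barcode with no scaling, as the values themselves show. The submitters' processing notes name mm10 as the build. No label or header names an aligner or an annotation. The matrices hold 31053 genes, and the median depth of kept barcodes was 8631 UMIs with Lac.z and 9466, 6463 and 5132 UMIs at days 5, 14 and 28 without.

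UMIs were summed over members, or over other C1q-positive cells, per library and scaled to UMIs per 1000000 (CPM), with Python 3.11.15, numpy 2.4.6, scipy 1.17.1 and pandas 2.3.3. Genes with 50 or more UMIs in the 2 sums together were measured, and higher or lower means at least 1.5-fold by the log2 ratio of CPM with 1 UMI added to each sum. Folds printed with intervals carry no added UMI. Ratios carry exact conditional binomial intervals, levels exact Poisson and shares exact Clopper-Pearson intervals, all at 95% and for counting error only. PCR duplicates are removed by UMIs, but cells of 1 library are not replicates. Comparisons were made where both sides had at least 50 cells, so day 28 has values only. The calculation of the ratios was checked on simulated Poisson sums. These lack the uneven spread of UMIs over cells, so the check covers the arithmetic and not that spread. Doublets were scored with Scrublet in scanpy 1.11.5 and removed only in an alternative (0.8% per 1000 barcodes). The members, the gene lists and the tests were chosen with earlier results of these data known. Genes named are the 10 highest and 10 lowest ratios at day 5 (5 each for day 14 and for the difference between members and others) among genes with a UMI in at least 10% of members, leaving out the 13 rule genes and gene models named Gm or ending in Rik, the 4 markers of the label, and up to 4 members of each list. Further list members, such as Stat2, Il18, Tnf, Nlrp3, Ifih1, Ddx58, Zbp1, C4b, Cfb, Cd80, Hp and Ccr1, were named after their values were seen. Genes with near-identical copies, such as H2-Q6, H2-Q7, Ifit3 and Ifit3b, are uncertain. Alternatives, 15 chosen with the rule and 3 added after the values were seen, changed 1 choice at a time.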

Additional observations from a re-analysis of the deposited data

Results flagged for a closer look

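For 16 genes among those with values here, the Lac.z ratio at day 5 went one way in Ms4a4c macrophages and the other way in the other C1q-positive cells, each by at least 1.5-fold. The difference was not tested, since each side rests on 1 library per group, and such opposite ratios were found for 55 of 9537 genes measured in both. Log2 ratios, Lac.z over none, are given for Ms4a4c macrophages first and for the other cells after them.

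Several genes of the distal tubule and of red blood cells were higher in Ms4a4c macrophages and lower in the others, while all 13 proximal tubule markers were higher in the others. Of loop and distal tubule genes, Slc12a1 had 4.55 and -1.97, Umod 3.85 and -0.77, Klk1 1.49 and -0.98, S100g 3.15 and -1.2, and Wfdc2 3.17 and -0.84. Atp6v1g3, of the collecting duct, had 4.48 and -4.18, and Lcn2, an injury gene, 2.86 and -1.31. Few cells held these UMIs: with Lac.z 204 of 204 Atp6v1g3 UMIs, 180 of 214 Slc12a1 UMIs and 459 of 571 Umod UMIs of Ms4a4c macrophages lay in 3 cells. The haemoglobin genes Hbb-bs and Hba-a1 had 2.96 and -4.07, and 0.61 and -4.37, and 12376 of 13808 Hbb-bs UMIs of the other cells without Lac.z lay in 3 cells.

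Genes of leukocytes were split. Ccl5, a chemokine for T cells and monocytes, had 0.76 and -1.09, and its UMIs were spread wider, with 349 of 1392 in 3 Ms4a4c macrophages with Lac.z. Cd163, the haemoglobin scavenger receptor, had 0.76 and -1.32 on 61 and 11 UMIs of Ms4a4c macrophages with and without Lac.z. The chemokines of mature dendritic cells Ccl17 and Ccl22 had -2.73 and 1.99, and -7.65 and 1.12, with 266 of 268 and 130 of 131 UMIs of Ms4a4c macrophages without Lac.z in 3 cells. Fabp5, a fatty acid carrier, had -0.64 and 0.63, Timp3, an inhibitor of matrix proteases, -0.95 and 1.2, and Hist1h1b, a linker histone of dividing cells, -1.61 and 0.82.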

How the results depend on the processing

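No paired analysis was possible because each group had 1 library, and for the same reason no library could be left out of a group. Of 201 alternative values of the main comparisons 152 stayed within the limits set for a change. The ratio of shares, Lac.z over day 5, was 21.3 with a sum of at least 5 UMIs, 5.56 with at least 2, 17.9 for members with Ly6c2 and 32.2 after thinning, so it stayed above 1.5 in all of them. The day 14 share ratio was 1.84 (at least 5 UMIs) and 2.23 (with Ly6c2), and the day 28 ratio 1.99 (with Ly6c2) and 3.17 (thinned). Counts of genes past 1.5-fold depend on the count filter. With at least 200 UMIs, they were 380 higher and 150 lower (Lac.z over none in members), 394 and 408 (members over others with Lac.z), 567 and 498 (day 5), 260 and 280 (day 14), 208 and 224 (day 14 over day 5 in members), and 80 and 184 (difference of Lac.z ratios). With 1 UMI as the only filter they were 1862 and 4119, 3329 and 2494, 6894 higher, 6225 and 1290, 5277 and 1890, and 1247 and 4209, in that order. At 2-fold, the Lac.z counts were 322 and 224. Lower genes with Lac.z numbered 965 (at least 5 UMIs), 362 (without Plac8 in the rule), 251 (sum of 3 to 5) and 352 (under 10 UMIs of other lineages). For members over others, the day 5 counts were 2514 higher (at least 5 UMIs), 1320 lower (without Plac8) and 391 lower (others within the other limits), the Lac.z counts 1227 lower (with Ly6c2) and 393 higher (thinned), and the day 14 counts 698 higher and 1444 lower (without Plac8) and 714 higher (under 10 UMIs of other lineages). Day 14 over day 5 in members gave 508 higher (without Plac8) and 533 higher (doublets removed), and smaller Lac.z ratios in members numbered 1388 (at least 5 UMIs) and 503 (without Plac8). Mgp and Tagln turned to log2 ratios of 0.98 and 0.53 without Plac8 in the rule and to 0.91 and 0.47 under 10 UMIs of other lineages, where Gng11 turned to 0.35, and the proximal tubule list turned to a median of -0.063 with doublets removed. The causes were not tested. The interferon effector median stayed positive, from 0.89 (at least 5 UMIs) to 1.51 (at least 2), the class I median from 0.32 to 0.71 and the classical monocyte median from -0.75 to -0.39 (log2). Under 50 members remained, so no value was computed, for gene comparisons at day 14 with at least 5 UMIs or a sum of 3 to 5, and for members with Ly6c2 or thinned barcodes in all gene comparisons but members over others with Lac.z. Depth limits low genes: 3 UMIs are 0.314 CPM in members with Lac.z, and 0.958, 3.18 and 9.84 CPM at days 5, 14 and 28 without.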
